A study of Mus musculus with 4 samples.

Results

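The transcripts of the Jun, Fos and Atf3 subunits of the transcription factor AP-1 were examined in RNA that came down with CUGBP1 from mouse myoblasts. The 8 genes, *Jun*, *Junb*, *Jund*, *Fos*, *Fosb*, *Fosl1*, *Fosl2* and *Atf3*, were chosen by name as subunits of AP-1, because *Jun* is a known CUGBP1 target. Each was measured by exactly 1 probe set that names no other gene, so the set covers 8 of 21044 such probe sets and 8 of 19452 genes.

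The cells were proliferating C2C12 (LKO1), a line of mouse myoblasts that stably carries an empty lentiviral vector and was kept in puromycin. Both groups came from these same cells, which were kept subconfluent so that they would not differentiate. Cytoplasmic lysate was immunoprecipitated with the monoclonal antibody 3B1 against CUGBP1 (CUGBP1 IP, 2 arrays) or with normal IgG (control IgG, 2 arrays), and 100 ng of the RNA recovered was taken to each Affymetrix Mouse Gene 1.0 ST array. Input RNA was not analysed here, so no value is adjusted for how much of a transcript the lysate held, and in a lysate of many cells, fewer cells with a transcript and less of it per cell cannot be told apart.

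AP-1 is a dimer of basic leucine zipper (bZIP) proteins. Jun proteins pair with each other or with Fos and ATF proteins, while Fos proteins need a partner to bind DNA. Many of these genes are immediate early genes: serum, growth factors or stress induce them within minutes, and their mRNAs are short-lived. CUGBP1, encoded by *Celf1*, binds GU-rich sequence in mRNAs and promotes removal of the poly(A) tail. In muscle cells AP-1 activity is linked to proliferation, and *Jun* is known to oppose the muscle determination factor encoded by *Myod1*.

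Each value is an intensity divided by the 5th percentile of its array, so a probe set with no transcript reads about 1. Olfactory and vomeronasal receptor probe sets, 1198 in all, served as background, and a value counted as above background when it passed their 95th percentile on the same array, which lay between 1.09 and 1.29 on the 4 arrays. The arrays differed at the bright end. Their 95th percentile over the whole table was 9.37 and 13.0 for the CUGBP1 IP but 2.36 and 5.96 for control IgG replicates 1 and 2, and the share of tested probe sets above background was 58.3% and 63.0% against 39.6% and 57.2%. Across probe sets, the Pearson correlation of log2 values reached 0.981 within the CUGBP1 IP and 0.943 within control IgG, and ran from 0.846 to 0.926 for arrays of different groups. As a check of the cells, 7 of 8 measured myoblast markers were above background on all 4 arrays, and 8 on both CUGBP1 IP arrays. The dimmest, *Pax7*, read 1.40 and 1.76 after CUGBP1 IP against 1.13 and 1.25 with control IgG. *Myod1* read 18.8 and 23.2 against 1.77 and 3.30. The study named *Myod1* among transcripts bound by CUGBP1, so its values do not reflect cell type alone. *Des*, which encodes desmin, read 7.77 and 8.97 against 3.25 and 6.03. *Vim*, which encodes vimentin, read 77.9 and 114 against 32.1 and 98.1. Of 19 measured markers of other cell types, 1 was above background on all 4 arrays. This was *Krt14*, at 1.57 and 2.21 after CUGBP1 IP against 1.25 and 1.88 with control IgG. On both CUGBP1 IP arrays 4 of the 19 were above background: *Krt14*, *Apoa1*, *Mbp* and *Plin1*. Among the dimmer markers, *Alb* read between 1.00 and 1.07 and *Ptprc* between 1.03 and 1.11. The summed level of the 19 markers was 22.3 and 24.6 after CUGBP1 IP against 19.8 and 21.9 with control IgG. Of 6 mature muscle markers 1 was above background on all 4 arrays and 3 on both CUGBP1 IP arrays. Their summed levels were 9.35 and 9.75 against 6.70 and 7.63.

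The AP-1 transcripts differed widely in their signal relative to control IgG. *Jund*, *Jun* and *Fosl2* were at the top, with signal-to-negative ratios of 8.65, 7.27 and 3.22. This ratio divides the CUGBP1 IP mean by the control IgG mean, and it is the measure by which the study ranked transcripts, taking the top 5% as associated with CUGBP1. The top 5% here is of the 21044 tested probe sets, so its start differs from that of the study's own list of mRNAs, and a gene near it need not be on that list. *Junb*, *Fosl1*, *Fosb* and *Fos* had ratios between 1.36 and 1.73, and *Atf3* had 1.11. The median over the 8 genes was 1.62, beside 1.22 over all tested probe sets.

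**Figure D1:**
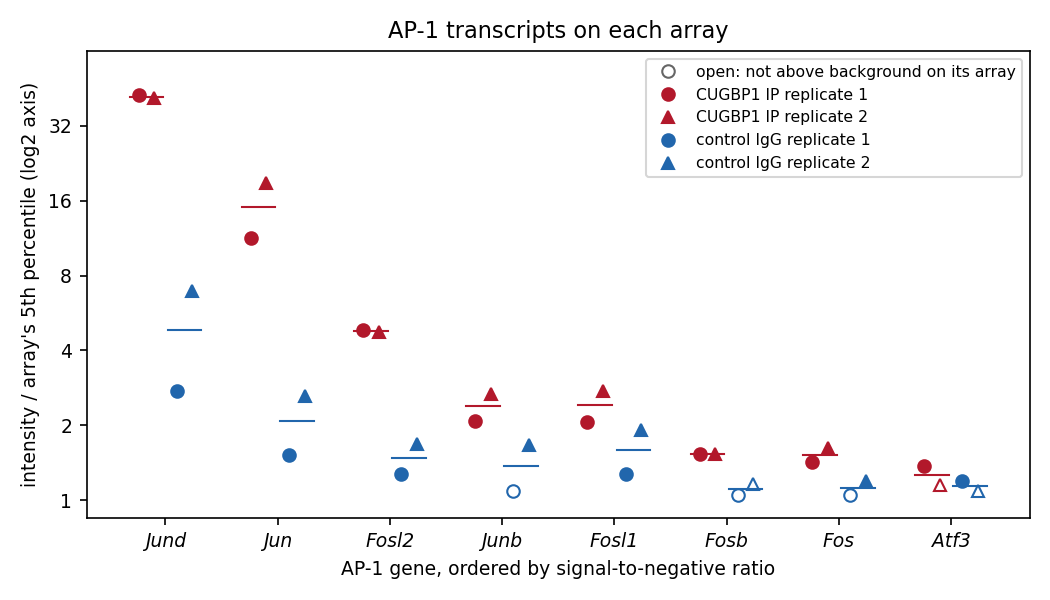
Intensity of the 8 AP-1 transcripts on each of the 4 arrays, divided by the 5th percentile of the array (log2 axis). Red marks the CUGBP1 IP and blue control IgG, circles are replicate 1 and triangles replicate 2, horizontal lines are group means, and open symbols were not above background on their own array. *Jund*, *Jun* and *Fosl2* show the widest gaps between groups, and only *Atf3* has groups that overlap.

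Of the Jun family, *Jund* had the highest ratio. JunD is the Jun protein that most resting and growing cells make steadily. Its probe set (10572456) read 42.4 and 41.4 after CUGBP1 IP and 2.75 and 6.94 with control IgG. The CUGBP1 IP arrays were close to each other and both far above either control, whereas the control arrays were far apart. The means were 41.9 ± 0.764 and 4.85 ± 2.96 (SD, n = 2 arrays each). The log2 difference, CUGBP1 IP minus control IgG, was 3.26 (SE 1.35) and missed the threshold of 0.05 after adjustment over all tested probe sets (limma adjusted p = 0.124, unadjusted p = 0.0156). The ratio depended on the control: it was 15.2 against control IgG replicate 1 and 6.04 against control IgG replicate 2. The top 5% of the ratios of all probe sets began at 2.57 with both controls. It began at 3.97 with control IgG replicate 1 alone and at 2.12 with control IgG replicate 2 alone, so either *Jund* value lies within it.

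*Jun* is the founding member of the family and a potent activator of growth genes. By RT-PCR the study found *Jun* enriched over control IgG in CUGBP1 immunoprecipitates of these cells. It also placed *Jun* among the CUGBP1-associated transcripts of these arrays, so the values here are not independent evidence. Whether the RT-PCR used the same immunoprecipitates as the arrays is not stated. The study listed this primer pair for the RT-PCR, its other readout of *Jun*, shown 5′ to 3′. It was taken by its gene symbol: the gene identifier beside it is not that of *Jun*, and the pair was not matched to a transcript here:
Jun left primer: aaaaccttgaaagcgcaaaa
Jun right primer: gtttgcaactgctgcgttag
On the arrays *Jun* (probe set 10514466) read 11.3 and 18.8 after CUGBP1 IP and 1.52 and 2.63 with control IgG. Replicate 2 was the higher in both groups, and the groups did not overlap. The means were 15.1 ± 5.29 and 2.08 ± 0.785 (SD, n = 2 arrays each). The log2 difference was 2.87 (SE 1.00, limma adjusted p = 0.0831, unadjusted p = 0.00425). The ratio was 9.92 against control IgG replicate 1 and 5.73 against control IgG replicate 2.

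*Junb*, the immediate early member of the Jun family that often restrains the activity of c-Jun, had a much smaller ratio. It read 2.09 and 2.68 after CUGBP1 IP and 1.09 and 1.66 with control IgG (probe set 10580282). The groups did not overlap, but control IgG replicate 1 was in the background range and control IgG replicate 2 lay not far below CUGBP1 IP replicate 1. The means were 2.39 ± 0.417 and 1.38 ± 0.403 (SD, n = 2 arrays each), giving a ratio of 1.73, and the log2 difference was 0.82 (SE 0.34, limma adjusted p = 0.124).

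In the Fos family the highest ratio was that of *Fosl2*, which encodes Fra-2, a Fos protein without the strong activation domain of c-Fos. *Fosl2* read 4.83 and 4.74 after CUGBP1 IP and 1.28 and 1.69 with control IgG (probe set 10520862). All 4 arrays were above background, the CUGBP1 IP arrays were nearly equal, and the groups did not overlap. The means were 4.79 ± 0.0636 and 1.49 ± 0.290 (SD, n = 2 arrays each). Its log2 difference of 1.70 (SE 0.55) had the smallest p-value of the 8 genes (limma adjusted p = 0.0634, unadjusted p = 0.00204). *Fosl2* depended least on the control among the 3 genes of the top 5%, with ratios of 3.74 and 2.83 against control IgG replicates 1 and 2.

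*Fosl1*, which encodes Fra-1, the other Fos protein of this kind, read 2.06 and 2.76 after CUGBP1 IP and 1.28 and 1.91 with control IgG (probe set 10460585). The groups were adjacent without overlap, since CUGBP1 IP replicate 1 was only slightly above control IgG replicate 2. The ratio was 1.51 and the log2 difference 0.61 (SE 0.37, limma adjusted p = 0.222).

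The transcripts of the classical immediate early Fos proteins read close to background. *Fos*, whose product c-Fos gives the family its name, read 1.43 and 1.62 after CUGBP1 IP and 1.05 and 1.19 with control IgG (probe set 10397346). *Fosb* read 1.54 on both CUGBP1 IP arrays and 1.05 and 1.16 in control IgG (probe set 10560481). For both genes the CUGBP1 IP arrays were above background and above both control arrays. The same held for *Apoa1*, *Mbp* and *Plin1*, markers of other cell types, with ratios of 1.26, 1.32 and 1.27. Both *Fosb* control values were in the background range. On the deposited scale *Fosb* was therefore at least 1.37-fold higher in the CUGBP1 IP, computed with the top of that range as the control. This bound is not a minimum for other scales. The *Fosb* ratio was 1.15 after median scaling, 1.17 after quantile normalization and 1.25 after scaling to the receptor background. As deposited, the measured ratios were 1.36 for *Fos* and 1.39 for *Fosb*. Their log2 differences were 0.45 (SE 0.20, limma adjusted p = 0.139) and 0.48 (SE 0.20, limma adjusted p = 0.120).

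*Atf3*, a stress-induced ATF protein that pairs with Jun proteins, was the only gene of the set whose groups overlapped. It read 1.37 and 1.15 after CUGBP1 IP and 1.19 and 1.09 with control IgG (probe set 10361091). In each group only replicate 1 was above background, and CUGBP1 IP replicate 2 was below control IgG replicate 1. The ratio was 1.11 and the log2 difference 0.14 (SE 0.14, limma adjusted p = 0.414). With arrays scaled to their medians, to the receptor background or by quantile normalization, the log2 difference of *Atf3* was below 0, at -0.15, -0.02 and -0.26.

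Counted over the set, limma called 0 of the 8 genes at an adjusted p under 0.05, and 6 had an unadjusted p under 0.05. Over all tested probe sets it called 440, which is 2.09% (411 higher, 29 lower), and 6132 (29.1%) had an unadjusted p under 0.05. Both counts depend on the processing: without the intensity trend, or without any 1 of the 4 arrays, limma called 0 probe sets and 0 of the 8 genes, while the replicate block gave 11849 and 7, and scaling to the medians or the receptor background gave 1402 and 2179, with 1 of the 8 each. In the fit of the deposited values the standard errors followed intensity alone, so the replicate spread of a gene did not enter its p-value. In the top 5% of the ratio, which holds 5% of the tested probe sets by construction, were 3 of the 8 genes. *Jund* ranked 74 and *Jun* 110 among 21044 ratios, and *Fosl2* ranked 647. The nearest gene outside was *Junb*, at rank 3390, while *Fosl1* ranked 5399, *Fosb* 7026, *Fos* 7544 and *Atf3* 14821. Each of the CUGBP1 IP arrays exceeded both controls for 7 of the 8, but the same held for 66.3% of all tested probe sets. With arrays scaled to their medians it was 7 beside 30.8%, with scaling to the receptor background 7 beside 41.0%, and with quantile normalization 5 beside 19.4%. All 8 genes passed a filter on dim probe sets, which the CUGBP1 IP arrays alone could meet. Among the 12686 that passed, it was 7 beside 78.4%. With each CUGBP1 IP array compared only with the same-numbered control it was 8 beside 83.9%. All 8 had a ratio above 1, as did 93.3% of all tested probe sets.

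**Figure D2:**
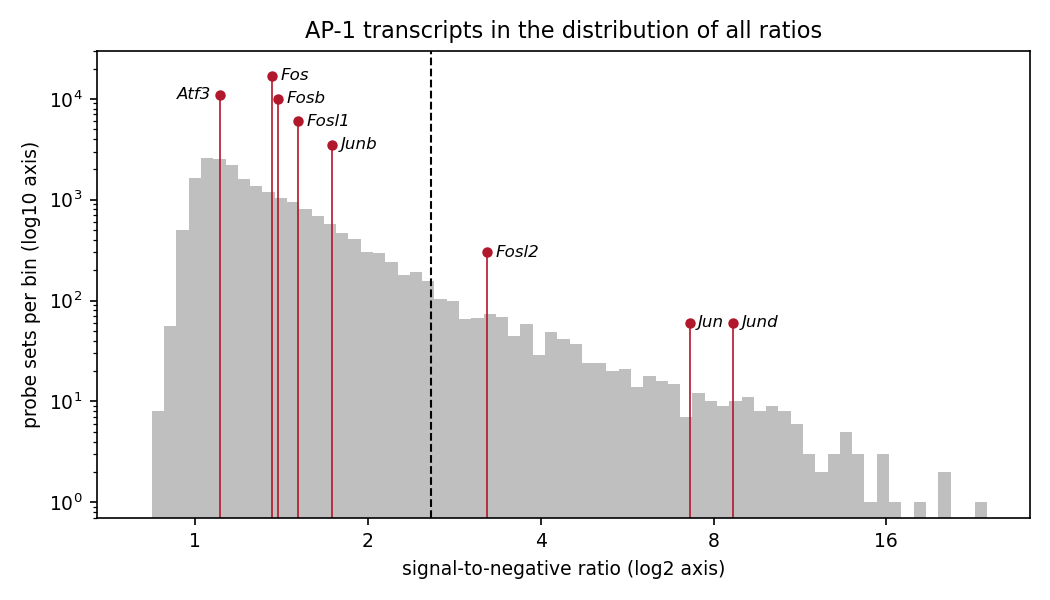
Histogram of the signal-to-negative ratio (log2 axis) over 21044 probe sets, with the number per bin on a log10 axis and a dashed line at 2.57, where the top 5% begins. Red stems of arbitrary height mark the 8 AP-1 genes: *Jund* (8.65), *Jun* (7.27) and *Fosl2* (3.22) lie right of the line and the other 5 left of it.

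In the order of the ratios, *Fosl2* was apart from its neighbours on both sides, and the other neighbours overlapped. Each gene has 4 ratios of a single CUGBP1 IP array to a single control array. These ran from 5.96 to 15.4 for *Jund* and from 4.31 to 12.4 for *Jun*, so the ranges of *Jund* and *Jun* overlapped. All genes share the same 4 arrays, and much of each range is the gap between the controls. An overlap of ranges therefore does not show that neighbouring genes are alike. *Fosl2*, from 2.80 to 3.77, lay wholly below *Jun* and wholly above *Junb*, which ran from 1.26 to 2.46. Further down, the overlapping neighbours were *Junb* with *Fosl1* (1.08 to 2.16), *Fosl1* with *Fosb* (1.33 to 1.47), *Fosb* with *Fos* (1.20 to 1.54) and *Fos* with *Atf3* (0.966 to 1.26). A ratio of a probe set near background is compressed towards 1, because the floor is part of both values, so the lower end of this order is also the dim end.

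Control IgG replicate 2 was above control IgG replicate 1 for 7 of the 8 genes, all but *Atf3*, and for 86.3% of all tested probe sets. Ratios to control IgG replicate 1 exceeded those to control IgG replicate 2 by more than 1.5 times for *Jund*, *Jun* and *Junb*. Leaving out control IgG replicate 2 moved the start of the top 5% from 2.57 to 3.97, and *Fosl2*, with 3.74, was then outside it while *Jun* (9.92) and *Jund* (15.2) stayed inside. Between the CUGBP1 IP arrays, replicate 2 was above replicate 1 for 4 of the 8 genes, *Jun*, *Junb*, *Fosl1* and *Fos*.

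Which genes passed the test changed with the scaling of the arrays. The log2 difference of the median tested probe set was 0.29 as deposited, 0.00 with arrays scaled to their medians, 0.13 with scaling to the receptor background and -0.02 with quantile normalization, so the differences are given here relative to it. Relative to that median, *Jund* was 2.97 higher, *Jun* 2.58, *Fosl2* 1.41, *Junb* 0.53, *Fosl1* 0.32, *Fosb* 0.19 and *Fos* 0.16, and *Atf3* was at -0.15. Scaling to the medians or to the receptor background leaves these relative values as they are, and limma then called *Fosl2* (adjusted p = 0.0105 and 0.0247). Quantile normalization reduced *Jund* to 1.82, *Jun* to 1.58 and *Fosl2* to 0.75, and limma called *Jun* and *Jund* (adjusted p = 0.00768 and 0.0177) and not *Fosl2* (adjusted p = 0.138). With quantile normalization *Fosl1* was at -0.22. *Jund*, *Jun* and *Fosl2* were in the top 5% under each of the 3 scalings. Scaling to the receptor background also changed the balance of calls over all probe sets, of which 66.3% were higher (1445 of 2179), against 93.4% as deposited.

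**Figure D3:**
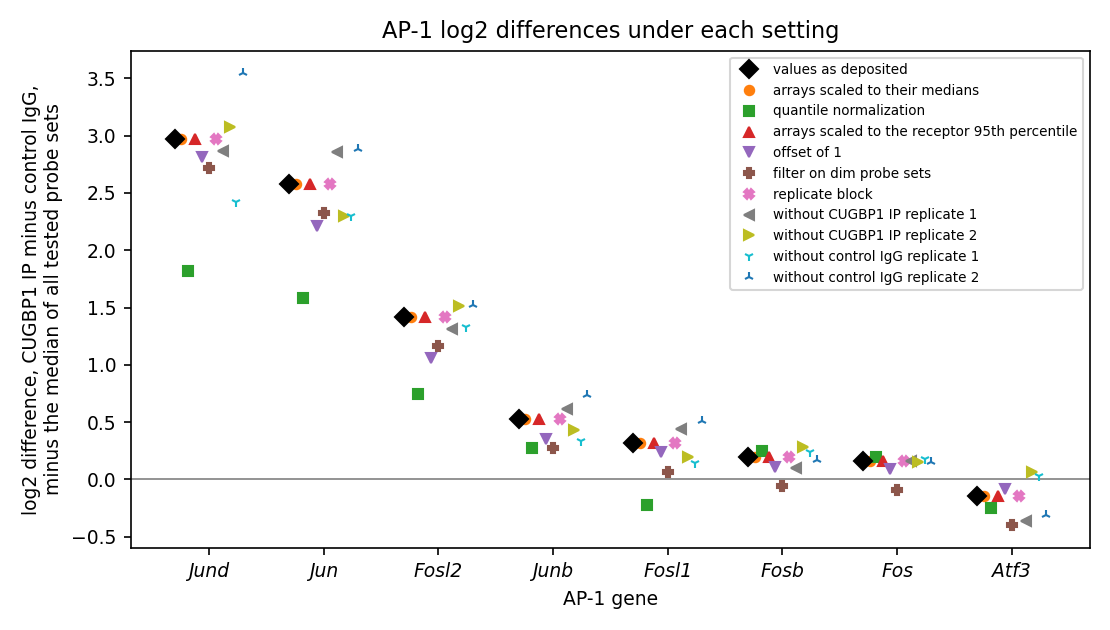
Log2 difference of each AP-1 gene, CUGBP1 IP minus control IgG, relative to the median of all tested probe sets, for the values as deposited (black diamonds) and for each other setting (coloured symbols). *Jund*, *Jun* and *Fosl2* lie above the other 5 genes under every setting drawn, quantile normalization gives their lowest values (1.82, 1.58 and 0.75), and *Fosl1*, *Fosb*, *Fos* and *Atf3* lie on both sides of 0 over the settings.

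Transcripts with the pattern most like that of *Jund* and *Jun* were found by the Euclidean distance between log2 values over the 4 arrays. All of these values share the same arrays and scaling. Nearest to *Jund* were *Atp6v0b* (distance 0.247, ratio 9.17), which encodes a subunit of the vacuolar proton pump, *Msmo1* (0.498, ratio 8.18), an enzyme of cholesterol synthesis, and *Tmem65* (0.569, ratio 8.63). Nearest to *Jun* were the RNA helicase gene *Ddx39b* (0.188, ratio 7.64), *Mrpl10* (0.210, ratio 6.97), which encodes a mitochondrial ribosomal protein, and *Ddit4* (0.255, ratio 7.16), a stress-induced inhibitor of mTOR signalling. limma called none of these 6, which follows from choosing them for values close to those of *Jund* and *Jun*, themselves not called.

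The genes around AP-1 were described next, from 5 lists: other bZIP proteins that pair with AP-1 proteins, the kinases and scaffolds upstream, the proteins that degrade or assist AP-1, other immediate early genes, and textbook AP-1 target genes. Of 103 genes listed, 92 were measured. limma called 6 of them higher (6.52%, beside 2.09% of all tested probe sets) and 0 lower, and 19 (20.7%) were in the top 5%. Without the intensity trend limma called 0 of them, and likewise 0 without CUGBP1 IP replicate 1 or 2 or control IgG replicate 1 or 2, where 1 residual degree of freedom remains. Each of the CUGBP1 IP arrays exceeded both controls for 77 (83.7%, beside 66.3%). Their median log2 difference was 0.79, beside 0.71 for the 8 AP-1 genes and 0.29 for all tested probe sets. Each list gene is represented by its brightest probe set, whereas all tested probe sets include many in the background range. Among the 12686 that passed a filter on dim probe sets, both CUGBP1 IP arrays exceeded both controls for 78.4%. The median log2 difference of those was 0.54. A probe set could pass that filter on the CUGBP1 IP arrays alone, so both values lean towards the CUGBP1 IP and are not a neutral background.

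Among 20 measured bZIP partners, 1 rose, 6 were in the top 5%, and the median ratio was 1.66. For this list and those below, the share called over all tested probe sets was 2.09%. A single call in a list is therefore not read as a result about that list. The risen gene was *Atf7*, whose product pairs with Jun proteins at ATF sites. *Atf7* read 14.4 and 22.3 after CUGBP1 IP and 1.23 and 2.05 with control IgG (probe set 10433034, ratio 11.2, log2 difference 3.50, SE 1.00, limma adjusted p = 0.0372). The other *Atf7* probe set was called too, with a ratio of 11.4 (limma adjusted p = 0.0264). *Nfe2l1*, a cap-n-collar factor of proteasome and stress genes, read 12.03 and 18.32 against 1.36 and 2.17 (ratio 8.60) but was not called (limma adjusted p = 0.0533). *Atf1*, a factor of the CREB family, read 22.7 and 23.2 against 3.28 and 7.25 (ratio 4.36, limma adjusted p = 0.206). As with *Jund*, the controls of *Atf1* were far apart while its CUGBP1 IP arrays were close.

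Upstream of AP-1, 1 of 18 measured kinases, scaffolds and serum response factors rose and was the only one in the top 5%, and the median ratio was 1.59. *Mapk14*, the p38 alpha kinase, which acts on ATF proteins, read 11.1 and 12.2 against 1.39 and 1.66 (ratio 7.64, log2 difference 2.94, SE 0.85, limma adjusted p = 0.0377). *Elk4*, a ternary complex factor that acts with serum response factor at the *Fos* promoter, had a ratio of 2.55, just below the start of the top 5% (limma adjusted p = 0.111). *Elk1*, of the same family, had 2.09 (limma adjusted p = 0.297), but with quantile normalization its log2 difference was -0.29. The kinases that phosphorylate c-Jun itself, looked up after the values were seen, had smaller ratios: *Mapk8* 1.97 and *Mapk9* 1.67, with limma adjusted p-values of 0.0981 and 0.208. The third of these kinase genes, *Mapk10*, was above background on 0 of the 4 arrays.

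Of 11 measured genes for turnover and cofactors of AP-1 proteins, limma called 0, with 4 at an unadjusted p under 0.05 (beside 29.1% of all tested probe sets), and 0 were in the top 5%. The ratio was 1.96 for *Cul4b*, a cullin of ubiquitin ligases (limma adjusted p = 0.0930). The coactivator gene *Crebbp* had 1.94 (limma adjusted p = 0.108), and *Hdac3*, a histone deacetylase, had 1.65 (limma adjusted p = 0.324), but with quantile normalization a log2 difference of -0.32.

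The other immediate early genes had the highest median ratio of the 5 lists, 2.09, with 6 of 24 in the top 5% and 1 risen. This was *Sgk1*, a serum-induced kinase, at 4.54 and 12.4 after CUGBP1 IP against 1.09 and 1.55 with control IgG (ratio 6.43, log2 difference 2.53, SE 0.65, limma adjusted p = 0.0208). *Nr4a2*, an orphan nuclear receptor, read 8.49 and 9.66 against 1.27 and 2.59 (ratio 4.70, limma adjusted p = 0.0858). *Ccn1*, a secreted matrix protein, had a ratio of 2.63 (limma adjusted p = 0.327), which was 4.82 against control IgG replicate 1 and 1.81 against control IgG replicate 2. With quantile normalization the log2 difference of *Ccn1* was -0.15.

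Of 19 measured AP-1 target genes 3 rose, 6 were in the top 5%, and the median ratio was 1.80. *Hmox1*, the haem-degrading enzyme, read 16.9 and 19.9 against 1.25 and 2.34 (ratio 10.3, log2 difference 3.42, SE 1.02, limma adjusted p = 0.0453). The other two encode ligands of the EGF receptor family. *Hbegf* read 4.31 and 8.37 against 1.13 and 1.52 (ratio 4.78, limma adjusted p = 0.0255). *Ereg* read 2.37 and 7.71 against 1.09 and 1.16 (limma adjusted p = 0.0100). Its log2 difference was 1.93 as deposited, 1.64 with arrays scaled to their medians and 1.30 with quantile normalization. Both of its control values were in the background range, so on the deposited scale it was at least 3.80-fold higher. That bound was 2.11 without CUGBP1 IP replicate 2 and 6.86 without CUGBP1 IP replicate 1, and with quantile normalization *Ereg* was not called. For *Ereg*, and for *Sgk1* above, the CUGBP1 IP arrays were far apart, but each was above both controls. *Ccnd1*, the cyclin of the G1 phase, had a ratio of 6.61 but was not called (limma adjusted p = 0.110), and *Tgfb1*, a growth factor, had 1.80 (limma adjusted p = 0.421), but with quantile normalization a log2 difference of -0.65.

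**Figure D4:**
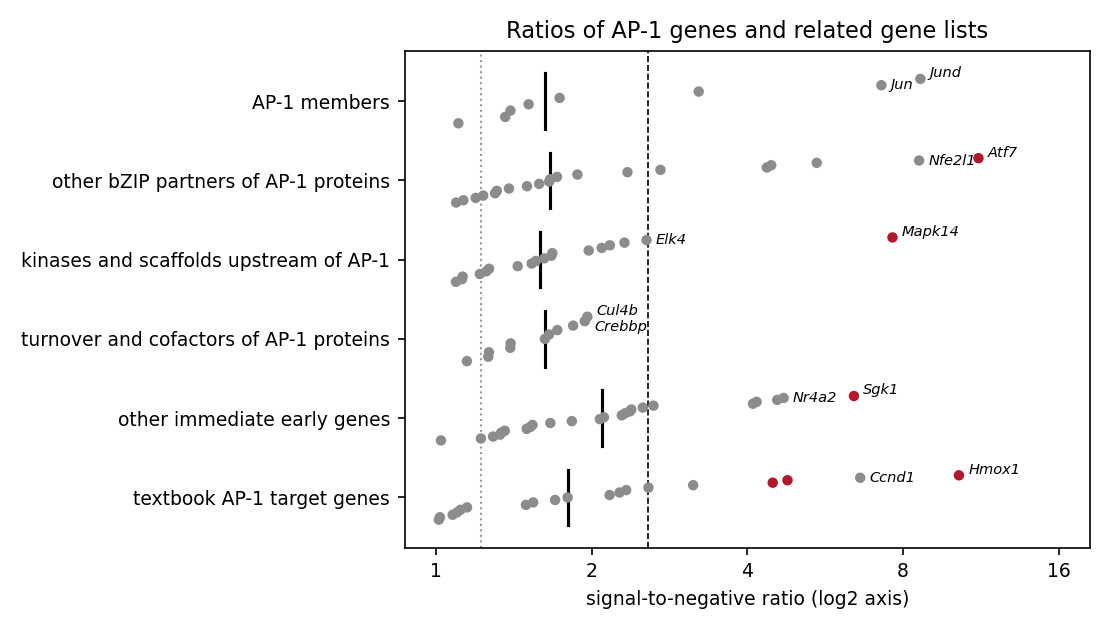
Signal-to-negative ratio (log2 axis) of each measured gene of the AP-1 set and of the 5 related lists, 1 point per gene, spread vertically by rank within its list. Red points were called higher by limma, black bars are list medians (1.62 for AP-1 members, 2.09 for other immediate early genes), the dotted line is the median of all tested probe sets (1.22) and the dashed line the start of the top 5% (2.57).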

How the data were processed

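Each deposited value is a linear intensity of a probe set that the authors divided by its array's 5th percentile. How probes were summarised and background was corrected is not given in the sources used here. Dividing in this way does not remove the floor or match the arrays' bright ends. A platform annotation paired 21044 of 25175 probe sets with exactly 1 gene, 1492 with several and 2639 with none, and 20959 symbols were updated through gene identifiers in a RefSeq table.

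Groups came from the sample titles. Nothing says that replicates were separate cultures, so p-values rest only on the spread between these samples, which may be technical. Log2 values were compared with limma 3.58.1 in R 4.3.3 (lmFit and eBayes, intensity trend on, two-sided p), and p-values were adjusted by Benjamini-Hochberg over the 21044 probe sets and a threshold of 0.05. With 2 arrays per group, 2 residual degrees of freedom remained. The moderation pooled fully (42088 total degrees of freedom), so each standard error (SE) and p-value uses the spread of probe sets of similar intensity, and a probe set's own replicate spread does not enter. "Rose" and "called" refer to this test.

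Members and lists were chosen with earlier results of these data known. All 8 members are named, and from each list every called gene, the 2 with the highest ratio and the one with the highest control value. A gene with several probe sets is represented by the brightest. Scalings, an offset, a dim filter, a replicate block, the trend and left-out arrays were tried as alternatives, and those for the related lists were chosen after seeing the data. The dim filter kept probe sets above background on at least 2 arrays of any group, so it favours probe sets that are bright in the CUGBP1 IP.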

Additional observations from a re-analysis of the deposited data

How the results depend on the processing

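*Jund*, *Jun* and *Fosl2* stayed in the top 5% under each alternative except that *Fosl2* was outside it with the filter on dim probe sets (3.22, where the top 5% began at 3.24) and without control IgG replicate 2; with an array left out the count was 2 to 3. The number of AP-1 genes called by limma was 0 as deposited, 1 with arrays scaled to their medians (1402 probe sets called, 14 of the related lists), 2 with quantile normalization, 1 with scaling to the receptor background (2179 called, 12 of the related lists), 1 with an offset of 1 (801 called), 1 with the filter, *Jun* (adjusted p = 0.0402), and 7 with the replicate block, all but *Atf3* (11849 called, 69 of the related lists). Same-numbered arrays deviated together (r = 0.639 over 21044 probe sets), but 2 pairs do not establish a pairing. Without the intensity trend limma called 0 probe sets (4757 at an unadjusted p under 0.05) and 0 of the related lists. It called 0 to 0 with an array left out, in the related lists too, with 1062 to 6085 at an unadjusted p under 0.05; 1 residual degree of freedom then remains. Log2 differences changed sign for *Atf3* (-0.15, -0.26 and -0.0235 with medians, quantile normalization and receptor background) and *Fosl1* (-0.24, quantile normalization). Other sign changes were those of *Ptprc* (-0.23, -0.0288 and -0.10) and *Alb* (-0.25, -0.0195 and -0.13) under the same 3 scalings, and with quantile normalization *Des* (-0.75), *Hdac3* (-0.32), *Vim* (-0.10), *Ccn1* (-0.15), *Tgfb1* (-0.65) and *Elk1* (-0.29). With an array left out, *Alb* ran from -0.007, without CUGBP1 IP replicate 2, to 0.0763, and *Vim* from -0.0564, without control IgG replicate 1, to 1.55. With quantile normalization *Ereg* was no longer called. The cause was not tested. The number of arrays limits the precision, and 4 of the 8 genes were above background on all arrays.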

Other observations

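Several genes of the related lists were in the top 5% without being called, and are named here after their values were seen. Among bZIP partners, *Atf2*, whose product pairs with c-Jun at the *Jun* promoter, read 17.4 and 15.0 after CUGBP1 IP and 1.88 and 4.06 with control IgG (ratio 5.45, limma adjusted p = 0.139). *Atf4*, the factor of the integrated stress response, had 4.45 (limma adjusted p = 0.186), and *Mafg*, a small Maf protein, had 2.72 (limma adjusted p = 0.110). Among immediate early genes, *Ier5* read 6.09 and 7.85 against 1.25 and 1.80 and lay at the threshold (ratio 4.57, limma adjusted p = 0.0500). *Dusp1*, a phosphatase that switches off MAP kinases, had a ratio of 4.10 and the Krüppel-like factor gene *Klf6* had 4.17, with limma adjusted p-values of 0.111 for both. The study had named *Dusp1* among CUGBP1-associated transcripts. Of the AP-1 target genes, *Ptgs2*, the inducible cyclooxygenase, which the study had named from these samples, had 3.14 (limma adjusted p = 0.187), and *Plau*, the urokinase gene, had 2.58 (limma adjusted p = 0.139). Both CUGBP1 IP arrays exceeded both controls for each of these genes, as for 66.3% of all tested probe sets. Because the genes were picked for a ratio in the top 5%, this separation is not further support.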
